A study of Mus musculus with 41 samples.

Results

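Dense clusters of MLL3/4 peaks in mouse epidermal stem cells (EpdSCs) were followed before and after SOX9 was switched on. Each peak of the D0 MLL3/4 list was extended by 6.25 kb at both ends, peaks whose extensions met were joined (widest gap 12.499 kb), and groups of 5 or more D0 peaks were kept as clusters. Of 16692 groups, 1684 were dense clusters, 6099 held 2 to 4 peaks and 8909 were single peaks. The clusters held 12400 of 37072 D0 peaks, or 33.4% (95% Wilson interval 33.0 to 33.9%). The clusters were chosen by the positions of D0 MLL3/4 peaks alone, so their high D0 counts are a description. At the limit, 943 groups held 4 peaks and were left out, while 571 groups held 5 peaks and were kept.

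MLL3 and MLL4 are large histone methyltransferases that place H3K4me1, a mark of enhancers, and stretches with many neighbouring enhancers are known to lie around genes that define a cell's identity. SOX9 is a transcription factor of the hair follicle lineage and is not normally made by EpdSCs of the epidermis. It binds DNA through its HMG domain and contacts co-factors through its transactivation (TA) domain.

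CUT&RUN (CNR), in which a nuclease tethered by an antibody releases DNA around the bound protein, was performed on sorted EpdSCs and on cultured keratinocytes. All in vivo samples came from male CD1 mice of the genotype K14rtTA; TRE-myc-Sox9, D0 included, so the D0 controls carried the silent transgene too. The Krt14 promoter drives rtTA in skin epithelium, and doxycycline (DOX) was injected at P21 and then given in the feed. Each group used here had 2 samples, and each list used was called on both together.

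EpdSCs were sorted for high CD49f and high Ly6A and for the absence of CD34, CD31, CD45, CD117 and CD140a. D0 was taken at postnatal day 21, W1 at day 28, W2 at day 35 and W6 at day 63, so age and weeks of DOX rose together. W12 came from skin grafted onto immunodeficient mice, so grafting and DOX time cannot be told apart there. SOX9 was profiled at all 5 times and MLL3/4 at D0, W1 and W2. Cultured cells carried wild-type SOX9 without DOX, or wild-type SOX9, SOX9 lacking the TA domain (noTA) or SOX9 lacking the HMG domain (noHMG) with DOX at 1 µg/ml. The samples of MLL3/4 with wild-type SOX9 and DOX are numbered apart in their titles, but other labels describe both as replicate 2. The replicates behind that list could not be settled.

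With 1 pooled list per group, no spread between replicates could be had and no difference between groups was tested. Intervals on shares cover counting error over peaks or clusters, and peaks of a cluster are not independent. Sequencing depth was not given with the lists, which held 37072 (D0), 31539 (W1) and 29281 (W2) MLL3/4 peaks. The SOX9 lists held 792 (D0), 15651 (W1), 18657 (W2), 20579 (W6) and 9745 (W12) peaks. The D0 list was the longest of the MLL3/4 lists, and fewer peaks at W1 or W2 can come from a list as a whole.

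Of the marker genes of the sorted cell type, all 10 keratinocyte markers had a D0 MLL3/4 peak within 5000 bp, and 8 lay over a dense cluster. Of markers of other cell types, 3 of 8 melanocyte, 2 of 8 fibroblast, 3 of 7 immune and 4 of 8 endothelial genes had a D0 peak, with 1, 0, 1 and 2 over a dense cluster. Summed peaks near the endothelial markers went from 22 at D0 to 11 at W1 and 12 at W2, those near the keratinocyte markers from 67 to 62 and 60, and those near the other lists stayed at 11 or below. The part of other cell types in the results below was not tested.

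A few clusters stood apart from the rest and are named before the results. The cluster with most D0 peaks, over Sfi1 and Drg1 at chr11:3123767-3202162, also held 86 peaks of the MYC-tag list of cells without DOX, where no tagged SOX9 is induced. The cluster at chr9:3000001-3038278, over 9 predicted genes from Gm10722 to Gm10715, held 30 such peaks. No other cluster held 5 or more. In the cluster over Taf1b and Grhl1 at chr12:24535452-24615991, 10 of 11 SOX9 D0 peaks and 9 of 23 MLL3/4 D0 peaks lay on exons of Grhl1, against 0 of 4 SOX9 and 3 of 11 MLL3/4 peaks at W1. Leaving out the first pair of clusters, or the clusters with 5 or more SOX9 D0 peaks, moved none of the main shares below beyond their intervals.

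Sequence windows of 101 bp centred on peak summits are shown to make the sites concrete, read on the plus strand of GRCm38 (mm10). Within the named clusters below, each shown peak has the highest total signal among peaks of its kind whose window held the word and lay outside exons, so the presence of the word is by choice. Capitals mark the words searched on both strands: TGACTCA for AP1, for SOX factors CCATTGT and CCTTTGT and also GCATTGT and GCTTTGT, and for GATA factors AGATAAG and AGATAAC. The first 2 windows are D0 MLL3/4 peaks absent at W1 and W2. The first is intergenic near Gja1 (chr10:56423227-56423327, maximum signal 34) and the second lies in an intron of Mgll (chr6:88761984-88762084, maximum signal 6). The lowest maximum in each of the D0, W1 and W2 MLL3/4 lists was 5, so the Mgll peak lay near that limit.
Gja1, lost: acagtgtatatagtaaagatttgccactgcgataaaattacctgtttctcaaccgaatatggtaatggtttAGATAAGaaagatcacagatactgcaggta
Mgll, lost: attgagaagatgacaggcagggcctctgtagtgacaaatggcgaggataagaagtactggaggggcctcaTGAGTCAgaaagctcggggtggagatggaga

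The next windows are D0 MLL3/4 peaks kept at W1 and W2 with a SOX9 peak on them at W1, beside S100a11 (chr3:93506427-93506527, intergenic), in an intron of Tmem45a (chr16:56871498-56871598) and in an intron of Mbnl2 (chr14:120323309-120323409). All hold an AP1 word, and the S100a11 window holds it at 2 places.
S100a11, kept under SOX9: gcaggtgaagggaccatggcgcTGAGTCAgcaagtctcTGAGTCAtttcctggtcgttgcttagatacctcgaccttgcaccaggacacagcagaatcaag
Tmem45a, kept under SOX9: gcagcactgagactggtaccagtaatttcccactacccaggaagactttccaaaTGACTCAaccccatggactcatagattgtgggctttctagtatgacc
Mbnl2, kept under SOX9: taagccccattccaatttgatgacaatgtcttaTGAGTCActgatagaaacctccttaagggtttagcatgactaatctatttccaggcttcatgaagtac

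The last windows hold a SOX word. The S100a11 window (chr3:93579231-93579331, intergenic) is a SOX9 W1 peak inside a cluster but off every D0 MLL3/4 peak. The others are MLL3/4 peaks gained at W1 in clusters that filled up, near Cldn16 (chr16:26444997-26445097, intergenic, maximum signal 7) and near Clvs1 (chr4:9067142-9067242, intergenic, maximum signal 9).
S100a11, SOX9 off D0 MLL3/4: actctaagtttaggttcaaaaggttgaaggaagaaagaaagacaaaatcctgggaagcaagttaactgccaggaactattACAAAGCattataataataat
Cldn16, gained: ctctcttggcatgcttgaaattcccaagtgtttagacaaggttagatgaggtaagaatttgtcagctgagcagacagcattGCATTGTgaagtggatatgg
Clvs1, gained: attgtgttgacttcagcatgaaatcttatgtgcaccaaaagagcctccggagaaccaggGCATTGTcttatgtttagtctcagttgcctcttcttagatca

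The clusters spanned 2.35 to 107.7 kb with a median of 20.3 kb, and 39.4 Mb in all. They held 5 to 44 D0 peaks, with a median of 6, and neighbouring peaks lay a median of 1.89 kb apart. D0 peaks covered 13.0% of the cluster bases. A promoter, taken as 1000 bp on either side of a transcript start, lay in 1201 of the 1684 clusters (71.3%, 95% interval 69.1 to 73.4%), and 1254 overlapped the body of a protein-coding gene. Of the D0 peaks in clusters, 22.0% lay at a promoter, against 32.4% of single D0 peaks. The clustered peaks were also stronger, with a median total signal of 1316 against 1158 in groups of 2 to 4 and 974 for single peaks.

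Clusters were sorted into classes by their MLL3/4 counts. A cluster thinned out where W1 and W2 both had at most 0.5 times the D0 count, filled up where both were at least 25% above the D0 count, and stayed where both were less than 25% away from it. All others were mixed. Of the 1684 clusters, 417 thinned out (24.8%, 95% interval 22.8 to 26.9%), 10 filled up (0.594%, 0.323 to 1.09%), 315 stayed (18.7%, 16.9 to 20.6%) and 942 were mixed. Among all 16692 groups, single peaks included, 45.7% thinned out, 0.869% filled up and 21.3% stayed, but in small groups the limits can be met by few counts, so nothing is read from that contrast.

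**Figure D1:**
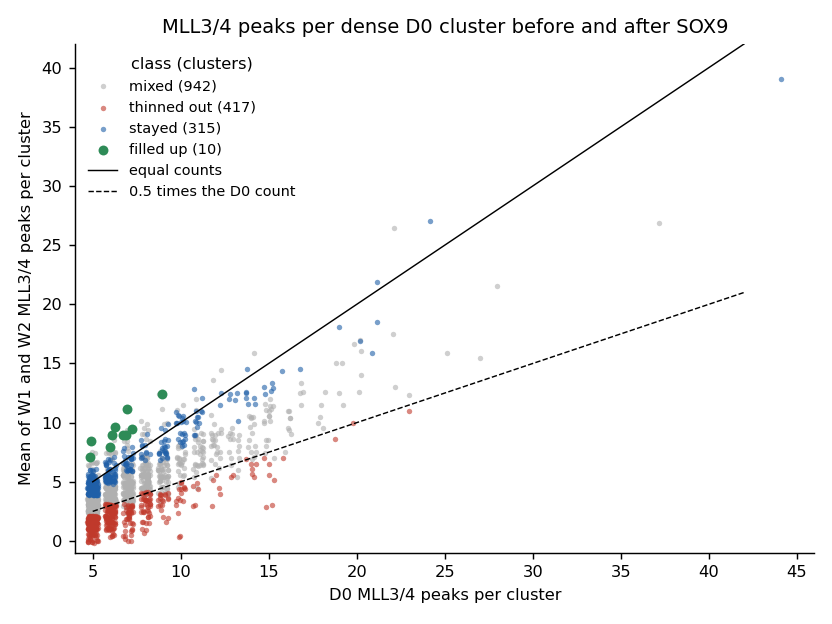
Each point is 1 of the 1684 dense clusters, with D0 MLL3/4 peaks on the x axis and the mean of the W1 and W2 counts on the y axis, coloured by class and moved by a small random amount to separate points. The solid line marks equal counts and the dashed line 0.5 times the D0 count. Most points lie between the lines or below them, and the 10 filled clusters hold 5 to 9 D0 peaks.

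Because each cluster had to be rich in D0 peaks, its later counts were bound to look lower, and the classes describe the clusters rather than the whole change. The summed count went from 12400 at D0 to 7970 at W1 and 8136 at W2, ratios of 0.643 and 0.656 against 0.851 and 0.790 for the whole lists. When clusters were built on the W1 list by the same rule and D0 peaks were counted in them, the ratio of D0 to W1 counts was 0.858. Likewise 37.1% of dense D0 clusters had at most 0.5 times as many W1 peaks, and 17.0% of dense W1 clusters had at most 0.5 times as many D0 peaks. With clusters built on the D0, W1 and W2 lists together, 14.4% thinned out and 16.0% filled up. With the 3 lists cut to equal size 14.4% of the D0 clusters thinned out and 2.10% filled up, and with counts scaled by list size 10.9% and 4.16% did.

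W1 and W2 took no part in choosing the clusters and could be compared with each other. From W1 to W2 the count was lower in 576 clusters, equal in 464 and higher in 644, and the summed count was 1.021 times as high while the whole list shrank to 0.928 times. The share that thinned out was 28.8% of 927 clusters with 5 or 6 D0 peaks, 22.1% of 480 with 7 to 9, 16.8% of 202 with 10 to 14 and 13.3% of 75 with 15 to 44. The share of D0 peaks lost at W1 varied less over the same sizes, at 43.5%, 42.9%, 40.2% and 39.2%, and the class limits are met by fewer counts in small clusters.

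Among the clusters that thinned out, the 6 with the largest mean fall are named. The cluster over Gja1, which encodes the gap junction protein connexin 43, spanned 49.7 kb (chr10:56377096-56426776) and held 15 MLL3/4 peaks at D0, 4 at W1 and 2 at W2. SOX9 peaks there numbered 0, 2, 1, 5 and 0 over the 5 times. Of the 15 D0 peaks, 10 were absent from both later lists and 0 peaks were gained at W1.

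The cluster over Mgll, a lipase that breaks down monoglycerides, went from 15 peaks at D0 to 3 at W1 and 3 at W2 (chr6:88759827-88788612). It held 1 SOX9 peak at W1, 2 at W2 and none later. The cluster over Chd9, a chromatin remodeller of the CHD family, went from 15 to 7 and 3 (chr8:90854606-90902362). The last of these had few SOX9 peaks as well, with 2 at W1 and 1 at W12. With counts scaled by list size its W1 count was 54.9% of D0, which is no longer thinning, while the Gja1 and Mgll clusters still thinned out.

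The cluster over Fos, an AP1 subunit induced by growth signals and stress, held 19, 9 and 8 MLL3/4 peaks (D0, W1, W2; chr12:85451560-85498039), with 5 SOX9 peaks at W1. The cluster over Tnfaip3, an inhibitor of NF-kappaB signalling, held 20, 10 and 10 (chr10:19008943-19067198), with 7 SOX9 peaks at W1. Both held more SOX9 peaks at W1 than Gja1 or Mgll, but their thinning calls were lost under other settings. With lists of equal size, counts scaled by list size or peaks within 500 bp merged, the mean later count was 53.3%, 54.5% and 65.4% of D0 over Fos and 58.8%, 61.0% and 66.7% over Tnfaip3, whereas over Gja1 and Mgll it stayed at or below 30% under every setting tried. The cluster over Taf1b and Grhl1 held 23, 11 and 11, but without the peaks on Grhl1 exons described above it held 14, 8 and 11, which is no longer thinning by the limits used. Grhl1 encodes an epidermal transcription factor of the grainyhead family.

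Few clusters filled up, with a median of 6.5 D0 peaks and of 25.8 kb in length. The largest mean rise among them lay 44.9 kb from the start of Map3k7cl (chr16:87598243-87611875), with 7 MLL3/4 peaks at D0, 11 at W1 and 11 at W2 while its SOX9 peaks numbered 0, 7, 7, 7 and 2 from D0 on. All 7 D0 peaks were kept at W1 and W2, and 4 peaks were gained at W1. The cluster near Cldn16, a tight junction gene, went from 9 to 12 and 13 with 10 SOX9 peaks at W1 (chr16:26414301-26448213). The cluster over Tnfsf18, a ligand of the TNF family, went from 6 to 10 and 8 with 6 SOX9 peaks at W1 (chr1:161482130-161508149).

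The others named by rule were near Clvs1, from 7 to 10 and 9, over Gm45826 and Spag11a, from 6 to 9 and 10, and over Shroom3, a regulator of actin and cell shape, from 5 to 7 and 10. With peaks within 500 bp merged, the mean later count was 117% of D0 near Map3k7cl, 107% near Clvs1 and 110% over Shroom3, which is no longer filling up. The remaining 4 filled clusters lay near Camk1g, over Rin2, near Mpdz and over Eea1. All 10 held a SOX9 peak at W1, W2, W6 and W12, but with 10 clusters the interval on that share reaches down to 72.2%.

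**Figure D2:**
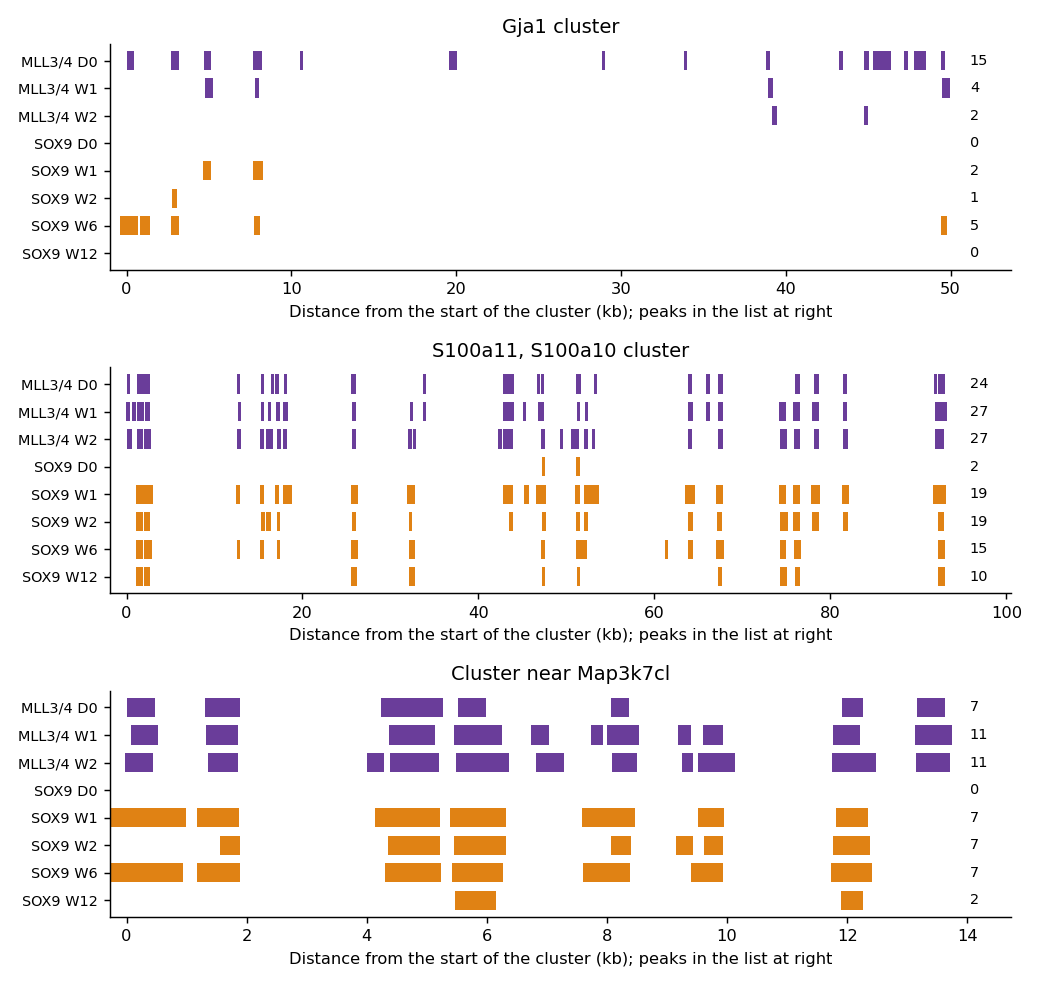
Positions of MLL3/4 peaks (purple) and SOX9 peaks (orange) in 3 clusters, as distance in kb from the first D0 peak, with the number of peaks in each list at the right. The Gja1 cluster went from 15 MLL3/4 peaks to 4 and 2, the S100a11 and S100a10 cluster from 24 to 27 and 27, and the cluster near Map3k7cl from 7 to 11 and 11.

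Of the clusters that stayed, the one with most peaks after Sfi1 and Drg1 (44, 38 and 40 peaks) covered S100a11 and S100a10, members of the S100 protein family. It spanned 93.1 kb (chr3:93504846-93597901) with 24 MLL3/4 peaks at D0 and 27 at both later times. SOX9 peaks there numbered 2, 19, 19, 15 and 10 from D0 to W12, and 20 of its 24 D0 peaks lay on a SOX9 W1 peak. Only 2 of the 24 D0 peaks were absent at W1.

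Other staying clusters lay near Cxadr, a receptor at tight junctions, with 21, 16 and 16 peaks, over Frmd8 with 21, 20 and 17, near Itprid2 with 21, 22 and 22, and near Tex44 with 20, 18 and 16. With counts scaled by list size the mean later count was 137% of D0 over S100a11 and S100a10, and by bases covered it was 133% near Itprid2 and 73.7% over Frmd8, so these 3 no longer stayed under those settings. Equal counts did not mean equal peaks. Near Itprid2, 6 of 21 D0 peaks were absent at W1 and 7 peaks were gained.

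The cluster with most SOX9 W1 peaks covered Tmem45a, a transmembrane protein of keratinocytes (chr16:56796823-56873976). It was mixed, with 22 MLL3/4 peaks at D0, 29 at W1 and 24 at W2, and its SOX9 peaks numbered 0, 20, 19, 15 and 7. Here 13 MLL3/4 peaks were gained at W1 and 5 D0 peaks were absent. The cluster over Fmod, Btg2 and Chit1, of which Btg2 encodes an antiproliferative protein, held 27, 17 and 14 MLL3/4 peaks with 14 SOX9 W1 peaks. Mbnl2, an RNA splicing regulator, went from 28 to 20 and 23 with 15 SOX9 W1 peaks.

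Many SOX9 peaks thus stood beside rising, level and falling MLL3/4 counts before scaling. The cluster over Foxn3, a forkhead repressor, went from 25 to 17 and 15 and held 7, 5, 0 and 0 SOX9 peaks at W1, W2, W6 and W12. With counts scaled by list size, W1 and W2 were 79.9% and 76.0% of D0 over Foxn3 and 84.0% and 104.0% over Mbnl2, so both stayed. Scaled counts were 154.9% and 138.1% over Tmem45a, which filled up. Over Fmod, Btg2 and Chit1 they were 74.0% and 65.6%, still mixed.

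**Figure D3:**
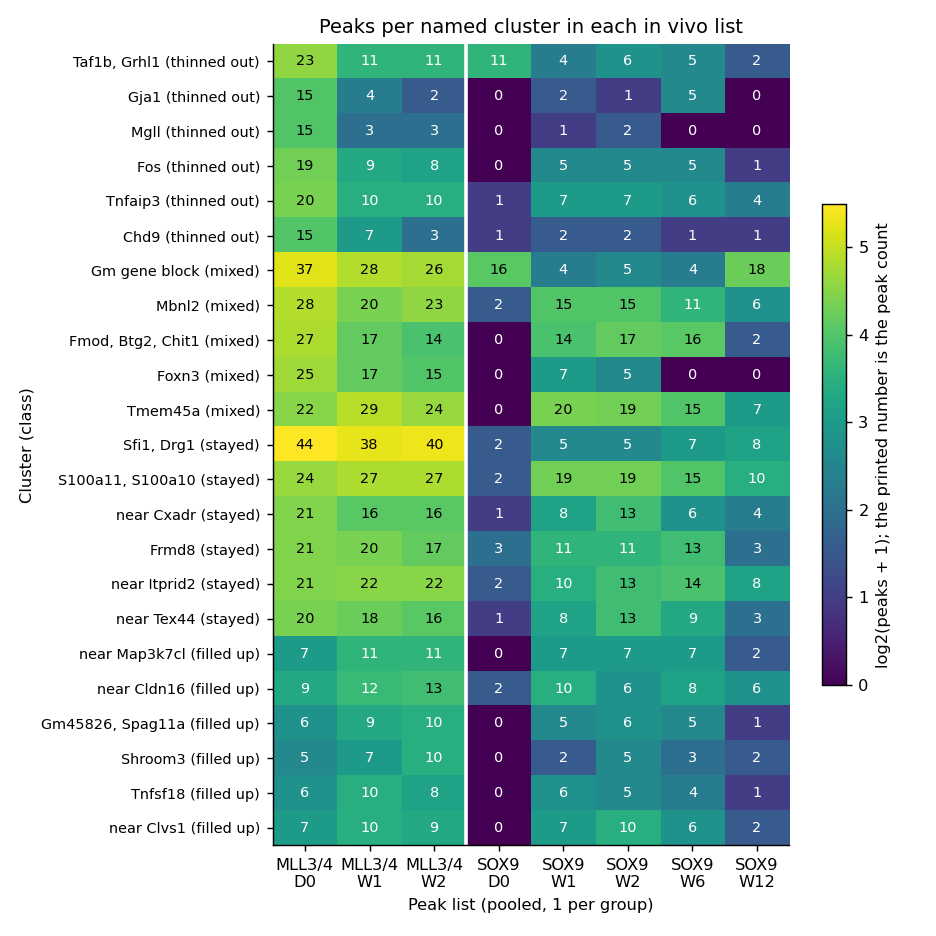
Heat map of the named clusters (y axis, with class) against the 8 in vivo peak lists (x axis). Each cell prints the peak count and is coloured by log2(count + 1). The Gm gene block is the chromosome 9 cluster that stood apart. SOX9 counts at W1 range from 1 over Mgll to 20 over Tmem45a.

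Gene lists were laid over the clusters to describe which pathways they touched. Of 21938 protein-coding genes, 1675 overlapped a dense cluster (7.64%). The overlap was 12 of 16 for basal keratins and adhesion genes, 13 of 18 for cell junction genes and 9 of 20 for epidermal transcription factors, but 0 of 19 for hedgehog and basal cell carcinoma genes. Of the hair follicle and outer root sheath genes, 7 of 25 overlapped a dense cluster. Over all clusters the mean of the W1 and W2 counts was a median of 64.3% of the D0 count, 24.8% thinned out and 18.7% stayed. With counts scaled by list size 183 of the 417 thinning clusters still thinned out, so each count of thinning clusters below is followed by that under scaling. Peak counts given for a gene below are those of the whole cluster over it, unless stated to lie within 5000 bp of the gene.

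The keratins and adhesion genes of the basal layer lay in 12 distinct clusters, of which 1 thinned out and 2 stayed, with a median of 75% of the D0 count. Itga6, the integrin that anchors basal cells to the basement membrane and whose protein was used in the sort, lay at a cluster with 7 MLL3/4 peaks in each of the D0, W1 and W2 lists and 6 SOX9 peaks at W1, while within 5000 bp of the gene there were 11, 7 and 8 MLL3/4 peaks. The cluster over Krt5 had 5, 6 and 7 and the cluster over Krt14 had 5, 3 and 3, both being keratins of the basal layer. Sdc1, a heparan sulfate proteoglycan, lay in the cluster of this list that thinned out, from 7 to 2 and 3. Under scaling 0 of the 12 thinned out, 5 stayed and 1 filled up. The Itga6 cluster became mixed, at 117.5% and 126.6% of D0. Within 5000 bp of all 16 genes of the list, in clusters or not, the summed MLL3/4 peaks were 122 (D0), 93 (W1) and 113 (W2).

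Cell junction genes lay in 12 distinct clusters, of which 2 thinned out and 6 stayed (24.8% and 18.7% of all clusters), with a median of 81.7%. Those that thinned out lay over Gja1 and over Cdh1, the latter with 6, 3 and 3 peaks. A mixed cluster over Cdh1 had 10, 7 and 13. Dsp, the desmosomal plaque protein desmoplakin, lay in a cluster with 8, 8 and 9 MLL3/4 peaks with 8 SOX9 W1 peaks. Perp, a desmosomal membrane protein, lay in a cluster with 19, 20 and 16 and with 8 SOX9 W1 peaks, and 7, 8 and 8 MLL3/4 peaks lay within 5000 bp of the gene. All 12 clusters held a SOX9 peak at W1. Under scaling 1 of the 12 thinned out, the one over Gja1, and 6 stayed. These were not the same 6, since the cluster over Dsp became mixed, at 117.5% and 142.4% of D0, and the one over Jup stayed. Within 5000 bp of all 18 genes the summed peaks were 118, 92 and 103.

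Epidermal transcription factor genes lay in 10 distinct clusters, of which 4 thinned out and 2 stayed, with a median of 45.8% of the D0 count. Those that thinned out lay over Grhl1, treated above, Grhl3, Tfap2a and Hes1, but under scaling 0 of the 10 did and 3 stayed. Around all 20 genes, on the same measure, the summed peaks were 115, 74 and 73. Grhl3, which acts in barrier formation, lay in a cluster with 14, 6 and 5 MLL3/4 peaks. Tfap2a, an AP2 factor of the epidermis, lay in one with 8, 3 and 4.

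Hes1, a repressor downstream of Notch, lay in a cluster with 12, 3 and 5 MLL3/4 peaks and with 5 SOX9 peaks at W1 and 9 at W6. Within 5000 bp of the gene there were 7, 1 and 3 MLL3/4 peaks. Trp63, the master regulator of stratified epithelia, lay over a pair of clusters, with 11, 10 and 7 peaks in the larger and 5, 5 and 4 in the smaller. Klf5, a Krüppel-like factor of the basal layer, lay in a cluster with 6, 5 and 5.

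Of the 5 clusters over AP1 genes, 2 thinned out and 0 stayed, against 24.8% and 18.7% of all clusters, with a median of 44.7%. Beside Fos, the cluster over Jun, its dimer partner, went from 5 to 2 and 2, and under scaling 0 of the 5 thinned out and 1 stayed. Of 5 clusters over TGF-beta and WNT genes, 3 thinned out and 1 stayed, the one over Wnt4 with 5, 4 and 4 peaks. Those that thinned out were Tgfbr2, a TGF-beta receptor, from 14 to 6 and 7, Smad3, its signal transducer, from 12 to 5 and 4, and Axin2, a feedback inhibitor of WNT signalling, from 6 to 1 and 2. Smad3 and Axin2 still thinned out under scaling.

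In the EGF receptor and Notch list, 1 of 8 clusters thinned out and 0 stayed, or 1 and 1 under scaling. It lay over Notch2, a Notch receptor, from 7 to 2 and 1, held 0 SOX9 peaks at W1 and W2 and still thinned out under scaling. Of the 5 clusters over epidermal differentiation genes, 2 thinned out, both over Tgm3, a transglutaminase of the cornified envelope, from 13 to 5 and 6 and from 8 to 4 and 1, and 2 stayed, over Sbsn with Krtdap and over Casp14. Under scaling 0 of the 5 thinned out, 1 stayed and 1 filled up. The 3 wound and stress clusters included 1 that thinned out, over Tnfaip3, and the 3 clusters over MLL3/4 and SWI/SNF subunit genes included 2, both over Arid1b. Under scaling 0 and 1 of these thinned out, and 2 and 0 stayed. Both Arid1b clusters held 0 SOX9 peaks in every in vivo list.

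The hair follicle and outer root sheath genes lay in 9 distinct clusters, of which 0 thinned out, 1 stayed and 8 were mixed, with a median of 71.4%. Under scaling 0 thinned out, 4 stayed and 1 filled up. Over all 25 genes, in clusters or not, the summed MLL3/4 peaks within 5000 bp were 133 (D0), 134 (W1) and 133 (W2). All 9 clusters held a SOX9 peak at W1. The staying cluster lay over Barx2, a homeobox gene, with 8, 9 and 7 MLL3/4 peaks and 8 SOX9 peaks at W1. Under scaling it became mixed, at 132.2% and 110.8% of D0. A mixed cluster over the same gene held 5, 3 and 1 MLL3/4 peaks and 1 SOX9 peak at W1. Vdr, the vitamin D receptor needed for hair cycling, lay in a cluster with 17, 12 and 15 MLL3/4 peaks and 7, 12, 8 and 3 SOX9 peaks at W1, W2, W6 and W12. These lists hold few clusters each, and their differences from the other clusters were not tested.

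Weak peaks of a cluster were lost more often than strong ones. Of the 12400 clustered D0 peaks, 42.2% (41.4 to 43.1%) had no overlapping peak at W1 and 40.7% (39.9 to 41.6%) had none at W2. Over all D0 peaks, 48.5% were lost at W1 and 48.7% at W2. The strongest D0 peak of a cluster was absent at W1 in 210 of 1684 clusters (12.47%) and the weakest in 1197 (71.1%). In 41 clusters all D0 peaks were absent at W1 and in 114 none was. In the clusters that thinned out, the strongest peak was still present at W1 in most, being absent in 134 of 417 (32.1%, 27.8 to 36.8%).

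Single peaks were lost more often than clustered ones, with 56.9% at W1 and 59.5% at W2, but they were also weaker. Within 10 equal bins of the D0 list by total signal, weighted as in clusters, the share lost was 3.71 points higher for single peaks than for clustered ones at W1 (95% interval 2.53 to 4.89) and 8.20 points higher at W2 (6.99 to 9.41). At W1 the clustered share was the lower one in 8 of 10 bins and at W2 in 10 of 10. Membership of a dense cluster was set by the positions of D0 peaks and the loss by the W1 and W2 lists.

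**Figure D4:**
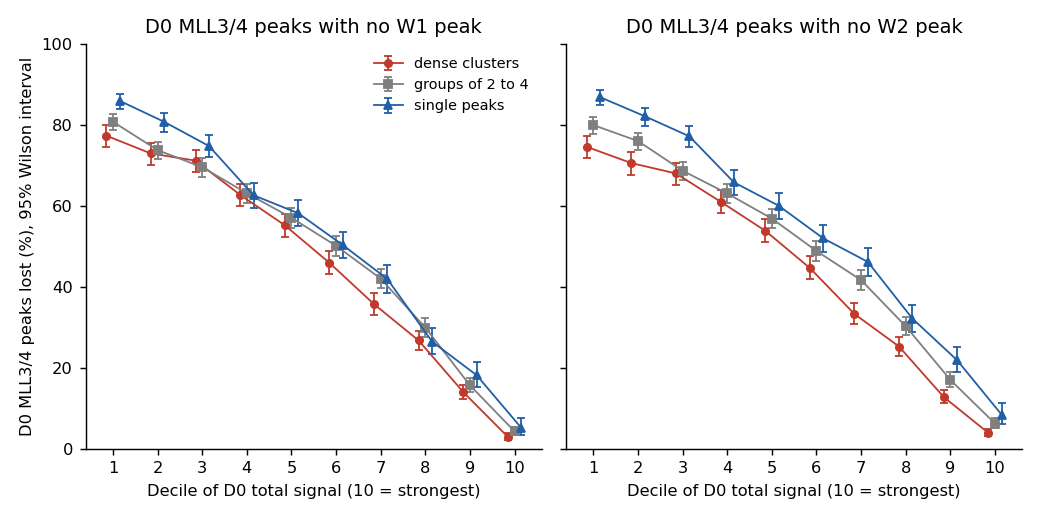
Share of D0 MLL3/4 peaks with no overlapping peak at W1 (left) and W2 (right) against 10 equal bins of D0 total signal, for peaks of dense clusters, of groups of 2 to 4 and single peaks, with 95% Wilson intervals. All 3 curves fall steeply with signal, and at W2 the curve of dense clusters lies below that of single peaks in 10 of 10 bins.

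Neighbours tended to share their state. Among clustered peaks at or below the median total signal of the D0 list, 73.9% (71.9 to 75.8%) were lost at W1 where the next peak was lost and 61.4% (59.6 to 63.3%) where it was kept. Above the median the shares were 28.5% (26.8 to 30.3%) and 18.9% (17.7 to 20.3%).

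SOX9 entered most clusters. A SOX9 peak lay in 17.3% of the 1684 clusters at D0 and in 86.5% at W1 (84.7 to 88.0%). The share was 88.7% at W2, and later 85.5% (W6) and 54.0% (W12). The W12 list held fewer peaks than those of W1 to W6. Among all groups of D0 peaks 41.5% held a SOX9 W1 peak, but most of them are shorter. In windows of the same length right before and after each cluster the shares were 2.52%, 43.5%, 38.5%, 44.7% and 21.1% from D0 to W12. In 51.8% of clusters (49.5 to 54.2%) SOX9 was present at W1, W2, W6 and W12, and in 89 it was present at none of these times. With SOX9 peaks kept only above 3600 RPKM, the share at W1 was 43.8% and that at those 4 times 13.9%.

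Of the 4333 SOX9 W1 peaks inside clusters, 3990 overlapped a D0 MLL3/4 peak (92.1%), which is a description, since the clusters were chosen for D0 peaks. Of all D0 MLL3/4 peaks, 32% lay on a SOX9 W1 peak, against 38.0% (37.1 to 38.8%) of clustered ones. Within bins of total signal, the share of single peaks minus that of clustered peaks was -5.51 points (-6.79 to -4.22). For peaks in groups of 2 to 4 the same difference was -2.83 points (-3.86 to -1.80).

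Clusters whose MLL3/4 count stayed held SOX9 peaks more often than those that thinned out. At W1, SOX9 was present in 98.1% of the clusters that stayed (95.9 to 99.1%), 92.0% of the mixed ones and 64.7% of those that thinned out (60.0 to 69.2%). With SOX9 peaks kept only above 3600 RPKM the shares were 69.8% of staying and 16.5% of thinning clusters, and with at least 8 D0 peaks a cluster 100% and 85.0%. The difference between staying and thinning clusters was 33.3 points (28.4 to 38.2). SOX9 at W1, W2, W6 and W12 was found in 74.3% of staying and 27.6% of thinning clusters. The mean number of SOX9 W1 peaks was 1.13 in thinning, 2.75 in mixed, 3.84 in staying and 6.1 in filling clusters.

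D0 signal moved with the classes too, since of 3 equal bins by mean peak signal the lowest had 42.8% of its clusters thin out and the highest 10.3%. Within each bin the order was kept. In the lowest bin SOX9 W1 peaks lay in 94.6% of staying and 56.7% of thinning clusters, and in the highest in 98.8% and 84.5%. The flanks of staying clusters also held SOX9 more often, with 59.4% against 27.5% at the flanks of thinning clusters at W1. Of the thinning clusters, 68 of 417 (16.3%) never held a SOX9 peak from W1 to W12, and of the staying clusters 0 of 315, which allows a share of up to 1.205% by the Wilson interval.

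**Figure D5:**
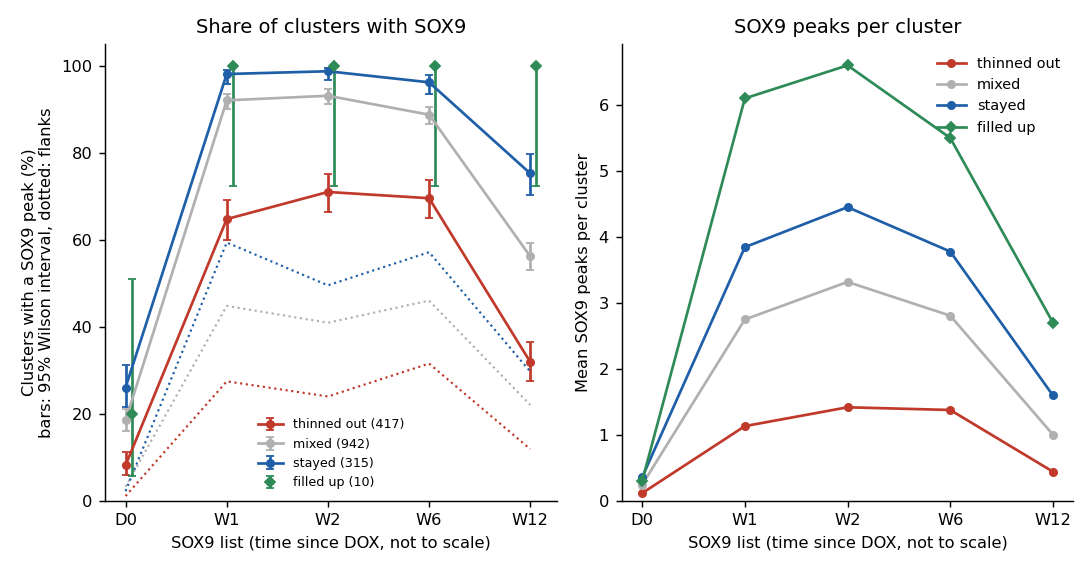
Left, share of clusters with a SOX9 peak at D0, W1, W2, W6 and W12 by class, with 95% Wilson intervals, and dotted lines for flanking windows of equal length (not drawn for filling clusters). Right, mean SOX9 peaks per cluster. At W1 the shares were 64.7% in thinning, 92.0% in mixed and 98.1% in staying clusters, and the 10 filling clusters had the highest mean, 6.1.

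Of clustered D0 peaks with a SOX9 W1 peak on them, 9.83% (9.01 to 10.7%) were lost at W1. Where SOX9 lay elsewhere in the cluster but not on the peak, 61.3% (60.1 to 62.5%) were lost, and where the cluster held no SOX9 W1 peak 65.9% (63.3 to 68.4%) were lost. Above the median total signal the shares were 5.57%, 41.8% and 46.8%, and at or below it 25.8%, 75.6% and 81.9%. SOX9 on the peak itself thus went with a far lower share of loss than SOX9 elsewhere in the same cluster. SOX9 and MLL3/4 lists at W1 came from cells of the same age and DOX time, and sites that give strong CNR signal for any antibody were not told apart here.

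New MLL3/4 peaks inside clusters were few. At W1, 918 of 7970 peaks in clusters (11.5%) had no D0 peak, against 39.7% of all W1 peaks, but the clusters were chosen for their D0 peaks. At W2 it was 972 of 8136 (11.9%), against 35.7% of all W2 peaks. A gained W1 peak occurred in 602 clusters. Of the 918 gained peaks 34.1% (31.1 to 37.2%) lay on a SOX9 W1 peak. So did 30.2% (29.4 to 31.1%) of the 11600 W1 peaks gained outside dense clusters. The share was 59.3% (58.2 to 60.5%) for the W1 peaks in clusters that overlapped a D0 peak.

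The AP1 word lay within 50 bp of the summit in 13.4% of clustered D0 peaks (12.9 to 14.1%), 2.11% of control windows 1000 bp to either side and 11.8% of single D0 peaks. Among clustered peaks it was found in 15.1% of those kept at W1 (14.3 to 15.9%) and 11.2% of those lost (10.35 to 12.05%). Peaks of thinning and staying clusters differed little in it, with 13.0% (11.8 to 14.3%) and 14.7% (13.4 to 16.2%).

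SOX words lay in 5.69% of clustered D0 peaks against 6.19% of their control windows. In SOX9 W1 peaks inside clusters they lay in 13.0% (12.02 to 14.11%) of those on a D0 MLL3/4 peak and in 33.5% (28.7 to 38.7%) of the 343 off them, with control windows at 6.22% and 7.73%. AP1 words went the other way, with 19.4% on D0 MLL3/4 peaks and 7.87% off them. MLL3/4 peaks gained at W1 held a SOX word in 11.5% (9.64 to 13.8%), against 7.14% of control windows. At W12, SOX9 peaks in clusters held the AP1 word in 31.3% and a SOX word in 18.8%. The GATA words and the AP2 word GCCNNNGGC were found in 3.99% and 4.05% of clustered D0 peaks, against 2.33% and 2.40% of control windows.

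In cultured keratinocytes the same clusters were partly occupied. Of the clustered D0 peaks 43.2% (42.3 to 44.0%) lay on an MLL3/4 peak of cells without DOX, against 40.4% of all D0 peaks and 36.2% of single ones. The summed MLL3/4 count in clusters was 6452 in wild-type SOX9 cells without DOX and 1800 in the same cells with DOX, a ratio of 0.279 against 0.310 for the whole lists. With DOX it was 4444 in noTA and 4894 in noHMG cells, ratios of 0.689 and 0.759 to the same 6452, against 0.764 and 0.686 for the whole lists. No list of noTA or noHMG cells without DOX was used, so for these the construct and DOX cannot be told apart.

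The classes were set in vivo. Without DOX an MLL3/4 peak lay in 86.6% of the clusters that thinned out in vivo (83.0 to 89.5%) and 92.7% of those that stayed (89.3 to 95.1%), a difference of 6.13 percentage points (95% Newcombe interval 1.62 to 10.5). With wild-type SOX9 and DOX the shares were 38.1% (33.6 to 42.9%) and 66.7% (61.3 to 71.6%), or 28.5 points apart (21.4 to 35.3). With noTA they were 75.3% and 81.9%, 6.61 points apart (0.556 to 12.43), and with noHMG 75.1% (70.7 to 79.0%) and 85.7% (81.4 to 89.1%), 10.65 points apart (4.85 to 16.2). In all 4 lists the staying clusters thus held a peak more often, with an interval above 0 that covers counting error only. Their flanks also held an MLL3/4 peak more often than those of thinning clusters, at 48.4% against 39.8% without DOX. The flank shares were 21.4% and 13.1% with wild-type SOX9 and DOX, 36.7% and 33.3% with noTA, and 34.1% and 32.3% with noHMG. Staying clusters held a mean of 7.41 D0 peaks against 6.77 in thinning ones. They were also more common among clusters of high D0 signal. Neither was matched here. Among the named thinning clusters, Gja1 had 2, 0, 0 and 0 cultured MLL3/4 peaks without DOX and with wild-type SOX9, noTA and noHMG. In the same order Mgll had 2, 0, 1 and 0, Chd9 5, 0, 1 and 1, and Fos 10, 4, 4 and 8. Tnfaip3 had 10, 1, 8 and 7, and Taf1b with Grhl1 10, 6, 4 and 10. Smad3, taken from a gene list, had 11, 0, 8 and 9.

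The MYC-tag lists touched few of these sites. Of clustered D0 peaks 3.29% (2.99 to 3.62%) lay on a MYC-tag peak without DOX, 3.62% (3.31 to 3.96%) with wild-type SOX9, 10.6% (10.1 to 11.2%) with noTA and 4.02% (3.68 to 4.38%) with noHMG. Over all D0 peaks the shares were 3.44%, 3.61%, 9.86% and 4.28%, so each was near that of the whole D0 list. The MYC-tag lists differed in length, with 2242, 6671, 11341 and 3980 peaks in the same order.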

How the data were processed

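CNR peak lists of 16 groups were used, each called by the authors on 2 pooled samples. Per the labels and methods, the authors aligned reads to mm10 with Bowtie2 2.2.9, removed duplicates with Picard, kept short fragments with SAMtools 1.3.1, made coverage tracks with deepTools 3.1.2 and called peaks with SEACR. Signal in the deposited MLL3/4 lists takes whole-number values. The methods describe RPKM tracks for CNR peaks, so whether these values were scaled could not be settled. For SOX9 and the MYC tag the deposited maximum is in RPKM, kept by the authors above a minimum. Signals were therefore ranked only within the D0 MLL3/4 list. Peaks on assembled chromosomes were kept, shared peaks overlap by at least 1 bp and genes are from GENCODE on GRCm38.p6. Counts were computed with Python 3.11.15 and pandas 2.3.3, intervals with scipy 1.17.1 (Wilson) and statsmodels (Newcombe), sequence with pysam, and the overlap and merging code was tested on simulated data.

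The clusters, classes and gene lists were chosen with earlier results of these data known. Named clusters are the 6 with most D0 peaks, the 6 with the largest fall, rise or D0 count in each class and the 4 with most SOX9 peaks from W1 to W12. They are named by the protein-coding genes they overlap or else by the nearest protein-coding start. Both lists called on replicate 1 alone, and the JUN, ARID1a and BRG1 samples, were not analysed here. In the absence of a list for each replicate no test between groups was made. Alternatives were another merge distance, least number of peaks, list size, SOX9 limit, overlap, joining of close peaks, chromosomes, class measure and limits, scaling by list size, and another list to build clusters on.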

Additional observations from a re-analysis of the deposited data

How the results depend on the processing

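No paired analysis was possible because each list used was called on both samples of its group together. With these lists, leaving out 1 sample was not possible for the same reason. The lists called on replicate 1 alone were not analysed, so what they would give was not tested. Depth could not be compared between lists, and a site below the limit of a list is counted as lost. In groups of 5 or 6 peaks the class limits are met by few counts. The following 4 alternatives were chosen after seeing the data: leaving out clusters with 5 or more MYC-tag peaks without DOX, leaving out clusters with 5 or more SOX9 D0 peaks, and building clusters on the W1 or on the W2 list. The first pair moved none of the main results, and the values of the second pair, 17.0% at W1 and 17.5% at W2 against 37.1% and 34.9% in clusters built on D0, moved.

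For the main results, 75 values moved by less than the reported interval (for the number of clusters, by less than 1.5 times, with 2263 over 25 kb and 1141 with lists of equal size), and 60 moved further, as follows. Thinning was more common than filling up in all settings except clusters built on all 3 MLL3/4 lists, where filling up was the more common.

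Joining over 5 kb gave 844 clusters, of which 0.237% filled up and 48.3% held SOX9 at W1, W2, W6 and W12, with 40.1% of peaks lost at W1, 37.6% lost at W2 and 44.4% on a cultured peak. Joining over 25 kb gave 44.2% lost at W1, 43.2% at W2, SOX9 W1 in 89.0% and SOX9 at those 4 times in 57.004%. With at least 4 D0 peaks there were 2627 clusters, of which 31.4% thinned out, 1.14% filled up and 13.4% stayed, with 43.3% and 41.99% of peaks lost at W1 and W2, SOX9 W1 in 81.1% and SOX9 at those 4 times in 44.3%. With at least 8 there were 536, of which 19.96% thinned out and 0.187% filled up, with 41.1% and 38.7% lost, SOX9 W1 in 95.9%, those 4 times in 69.4% and 44.4% on a cultured peak.

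With MLL3/4 lists cut to equal size 14.4% thinned out, 2.10% filled up and 28.3% stayed, with 35.8% and 33.4% lost, SOX9 W1 in 89.9%, those 4 times in 57.5% and 47.9% on a cultured peak. With SOX9 kept above 3600 RPKM the SOX9 W1 share was 43.8% and that of those 4 times 13.9%. An overlap of 50% gave 43.7% and 42.6% lost. Joining peaks within 500 bp first gave 1105 clusters, 19.7% thinning and 23.7% staying, 40.2% and 39.3% lost, SOX9 W1 in 90.3%, those 4 times in 57.4% and 45.4% on a cultured peak.

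Classes by bases covered gave 18.9% thinning, 3.21% filling and 23.5% staying. Class limits of 0.67, 0.8 and 1.2 gave 45.4%, 1.43% and 10.3%. Counts scaled by list size gave 10.9%, 4.16% and 24.6%. Clusters built on all 3 MLL3/4 lists numbered 2667, with 14.4%, 15.97% and 15.9% in these classes and SOX9 at those 4 times in 55.9%. Over all alternatives the share lost at W1 ran from 4.15% to 10.7% for peaks under SOX9 and from 51.2% to 68.5% in clusters without SOX9.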
